A study of Mus musculus with 4 samples.

Results

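The feedback genes of the ERK pathway around Dusp6 were examined in basal cells of mouse tail epidermis. The set comprised 10 genes, Dusp4, Dusp5, Dusp6, Spry1, Spry2, Spry4, Spred1, Spred2, Etv4 and Etv5, of the 18193 genes named on the array. Its members were chosen by the measured fall of Dusp6 in the only comparison this experiment allows, with known relatives in the same feedback loop added, so the values of the set in that comparison are given as a description. Calls of members are counted from the fit over all probe sets and are no independent test. All probe sets annotated to a member were taken, 28 in all, of which 20 from 9 genes passed the intensity filter (a mean log2 value of at least 5.42 over the 4 arrays). All 4 Spry4 probe sets lay under it.

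The arrays came from CD-1 mice carrying a Cre recombinase that tamoxifen switches on and a YFP reporter at the Rosa locus that Cre turns on. In InvCREER/RosaYFP mice the involucrin promoter, active mainly in differentiating keratinocytes, drives Cre, and mice were given 10 ug of tamoxifen. In K14CREER/RosaYFP mice the keratin 14 promoter, active in basal keratinocytes, drives it, and mice were given 1 ug, so that dose and line cannot be told apart. Titles state 3.5 days after induction and the treatment protocol 4 days. YFP-positive cells with high alpha6 integrin and no surface CD34 were sorted, and each line has 2 arrays. Separate mice behind the arrays of a line are not stated, and p-values then reflect only how these samples vary, possibly for technical reasons.

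ERK, the last kinase of the Ras, Raf and MEK cascade, carries signals from growth factor receptors such as the EGF and FGF receptors, and in epidermis it is known for its part in basal keratinocyte growth. Active ERK raises transcription of proteins that dampen the cascade. Dusp4, Dusp5 and Dusp6 are dual-specificity phosphatases that remove phosphate from MAP kinases, Sprouty and Spred proteins act between receptor and Raf, and Etv4 and Etv5 are ETS transcription factors of the PEA3 group whose own transcription follows ERK activity. The messages of such genes are widely used as a readout of the cascade, but no phosphorylated protein was measured here.

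Across the 9 members that passed the filter, 8 had a lower mean in InvCREER than in K14CREER cells, where 51.8% of all tested genes did, and Dusp4 had a higher one. Dusp6 fell by 1.98 in log2 units (3.94-fold), the largest decrease of the 9, and the next lowest differences were those of Etv5 (-1.74) and Spred2 (-1.23). The median difference of the 9 genes was -0.80, against -0.01 over all 11270 tested genes, with the brightest probe set of a gene standing for it. For 7 of the 9 both InvCREER arrays were under both K14CREER arrays, as was the case for 24.1% of all tested genes, and for Dusp4 they were above (21.3% of all). Dusp6 was the 1 member called by limma at a Benjamini-Hochberg adjusted p under 0.05, where 0.373% of all tested genes were called lower. Without K14CREER 1 there were 0 member probe sets called, and without InvCREER 1 or InvCREER 2 there were 3 called lower, when 0.0577%, 0.888% and 1.44% of all tested probe sets were called lower in those fits. Since the set was chosen around a call in this contrast, nothing is read from these shares. Sorted cells were measured in bulk, so fewer cells expressing a gene and less of its RNA per cell cannot be told apart.

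**Figure D1:**
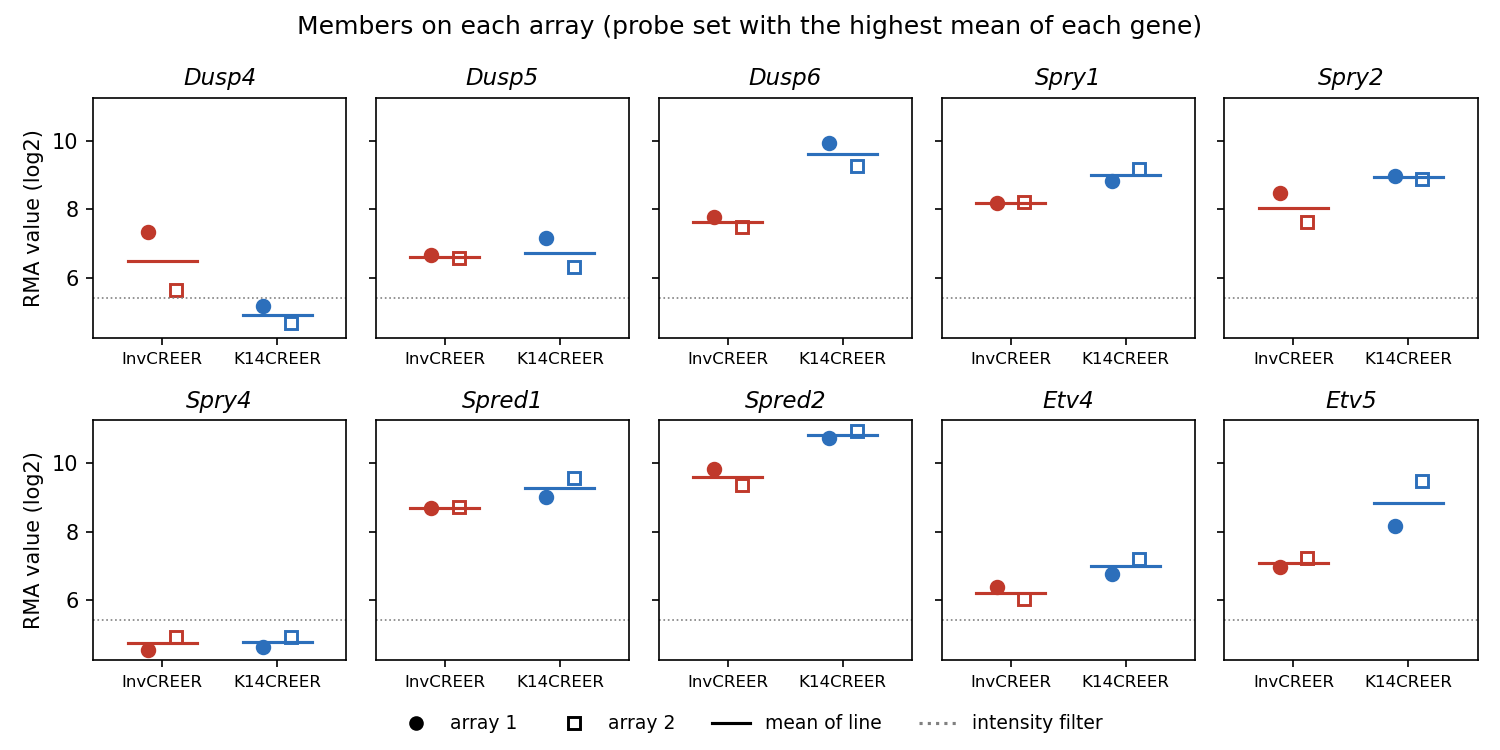
RMA values (log2) of the 10 members on the 2 InvCREER arrays (red, left) and the 2 K14CREER arrays (blue, right), with array 1 as filled circles, array 2 as open squares, the mean of each line as a bar and the intensity filter of 5.42 as a dotted line. Dusp6, Spry1, Spry2, Spred1, Spred2, Etv4 and Etv5 lie lower on both InvCREER arrays, Dusp4 lies higher on both, Dusp5 overlaps and Spry4 lies under the filter.

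Several facts of the arrays touch these values. Over tested probe sets the InvCREER arrays correlated at r = 0.967 and the K14CREER arrays at 0.969, across genes that are not independent replicates. Between the lines r ranged from 0.928 (InvCREER 1 with K14CREER 2) to 0.958 (InvCREER 2 with K14CREER 2). The 7 basal keratinocyte markers averaged 12.10 and 11.94 on the InvCREER arrays and 12.83 and 12.72 on the K14CREER arrays, all 7 with lower means in InvCREER and Krt15 called. Suprabasal markers averaged 10.08 and 10.45 on the InvCREER arrays, against 8.97 and 9.22 on the K14CREER arrays, with 4 of 5 tested called higher. Sebaceous markers averaged 9.47 and 7.94 in InvCREER, against 6.40 and 5.72 in K14CREER. Of 5 tested, 5 were higher on both InvCREER arrays, beside 21.3% of all tested genes. Mc5r among them (5.04 and 4.75 in K14CREER) passed the filter only through InvCREER. Langerhans and myeloid markers averaged 7.38 and 5.97 in InvCREER, against 5.49 and 5.16 in K14CREER. Dermal fibroblast markers averaged 5.05 and 4.92 in InvCREER, against 6.08 and 5.23 in K14CREER, with 4 of 6 under the filter. Of the 2 tested, Dcn measured 7.09 and 7.75 in InvCREER, against 9.50 and 9.07 in K14CREER (-1.87, limma adjusted p = 0.0552). Col1a2 overlapped between the lines (-0.33, limma adjusted p = 0.874). Endothelial markers averaged 4.39 and 4.59 in InvCREER, against 4.60 and 4.44 in K14CREER, with 4 of 5 under the filter. Follicle markers averaged 6.28 and 5.82 in InvCREER, against 6.60 and 6.13 in K14CREER, with 3 of 6 under the filter. Lgr6 among them was called lower, while Sox9 was higher on both InvCREER arrays (0.78, limma adjusted p = 0.436). Cd34, under the filter, stood out only on K14CREER 1 (6.07). Melanocyte markers averaged 6.10 and 6.72 in InvCREER, against 6.63 and 6.12 in K14CREER. The 3 T cell markers on the array averaged 5.24 and 5.32 in InvCREER, against 6.04 and 5.74 in K14CREER. That gap was the one of Thy1 (6.64 and 6.71 in InvCREER, against 9.18 and 7.80 in K14CREER). Cd3e differed by -0.002, and Cd3g, under the filter, by -0.014. The 3' over 5' log2 ratio of Actb, a sign of RNA quality, was 1.24 and 0.77 on the InvCREER arrays and 0.94 and 0.68 on the K14CREER arrays. That of Gapdh was 0.74 and 0.05 on the InvCREER arrays and 0.33 and 0.07 on the K14CREER arrays, so that InvCREER 1 was highest in both. The part of these cell types and of RNA quality in the member values was not tested.

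Dusp6 encodes a cytoplasmic phosphatase that acts on ERK with high preference, and it has 1 probe set on the array (1415834_at). It measured 7.77 and 7.50 on the InvCREER arrays, against 9.94 and 9.28 on the K14CREER arrays. The 2 lines were far apart, and the spread was wider within K14CREER. Means were 7.63 ± 0.19 in InvCREER and 9.61 ± 0.47 in K14CREER (SD, n = 2 each), a difference of -1.98 with a moderated standard error (SE) of 0.29. It ranked 35 from the lowest among the 22519 tested probe sets. The call of Dusp6 was lost without K14CREER 1, the array with its highest value, where the difference was -1.64 (SE 0.33), and also when the variance was modelled without a trend, with the difference the same.

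Dusp4 and Dusp5 encode nuclear phosphatases of the same family and did not follow Dusp6. Dusp4 measured 7.33 and 5.65 on the InvCREER arrays, against 5.17 and 4.67 on the K14CREER arrays. It was thus higher on both InvCREER arrays, but by 1.68 more on InvCREER 1 than on InvCREER 2, a gap wider than the 1.57 (SE 0.54) between the lines. Both K14CREER values lay under 5.42, so Dusp4 passed the filter only through InvCREER. Without InvCREER 1 its difference was 0.73, and without InvCREER 2 it was 2.41. InvCREER 1 is also the array with the highest sebaceous and Langerhans levels and 3' over 5' ratios. Dusp5 measured 6.66 and 6.58 on the InvCREER arrays, against 7.18 and 6.30 on the K14CREER arrays. The InvCREER values lay between the K14CREER values, and the difference of -0.12 (SE 0.33) turned to 0.32 without K14CREER 1.

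Sprouty proteins, known as brakes on receptor tyrosine kinase signalling, were represented by 3 genes. Spry1 measured 8.18 and 8.22 on the InvCREER arrays, against 8.82 and 9.19 on the K14CREER arrays. The InvCREER arrays nearly coincided, and the difference was -0.80 (SE 0.23). Spry2 measured 8.47 and 7.63 on the InvCREER arrays, against 8.99 and 8.89 on the K14CREER arrays, on its brighter probe set (1436584_at). There the spread lay within InvCREER, where the arrays were 0.84 apart, nearly as much as the line means (-0.89, SE 0.31). Its dimmer probe set had -0.32 (SE 0.22), again without overlap. There both InvCREER values (5.34 and 5.23) lay under 5.42, so that probe set passed the filter only through K14CREER. For Spry4 the 4 probe sets ranged from 3.83 to 4.93 on the InvCREER arrays and from 3.77 to 4.94 on the K14CREER arrays. All of them overlapped between the lines, and no difference was detectable at these levels.

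Spred proteins restrain Ras signalling together with neurofibromin, and Spred1 and Spred2 had the most probe sets. Spred2 measured 9.84 and 9.38 on the InvCREER arrays, against 10.73 and 10.93 on the K14CREER arrays (brightest probe set, 1434403_at). The lines did not overlap, and the difference of -1.23 had an SE of 0.21, smaller than those of Dusp6 and Etv5. A second Spred2 probe set (1436892_at) measured 7.83 and 6.45 on the InvCREER arrays, against 8.95 and 8.46 on the K14CREER arrays. Its difference was -1.57 (SE 0.46), and its InvCREER arrays lay 1.37 apart. The 3 dimmer Spred2 probe sets had differences of -0.54, -0.27 and -0.24, the last with overlap between the lines. With the mean of its tested probe sets Spred2 was at -0.77 (SE 0.24).

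Spred1 had 6 tested probe sets, and all 6 were lower on both InvCREER arrays. The brightest (1423160_at) measured 8.70 and 8.72 on the InvCREER arrays, against 9.02 and 9.56 on the K14CREER arrays, and had the smallest difference of the 6 (-0.58, SE 0.25). The largest was -1.05 (SE 0.23), on a probe set (1428777_at) at 5.93 and 5.81 in InvCREER, against 6.82 and 7.02 in K14CREER. The mean over the 6 gave -0.89 (SE 0.22). Of the 2 Spred1 probe sets under the filter, 1 had a higher mean in InvCREER, by 0.14.

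Etv5 and Etv4 stand at the transcriptional end of the pathway. Etv5 measured 6.99 and 7.22 on the InvCREER arrays, against 8.18 and 9.50 on the K14CREER arrays (1428142_at). The InvCREER arrays were close together and the K14CREER arrays 1.31 apart, with K14CREER 2 the highest. Means were 7.10 ± 0.17 in InvCREER and 8.84 ± 0.93 in K14CREER (SD, n = 2 each), and the difference was -1.74 (SE 0.43). It was -1.08 without K14CREER 2 and -2.39 without K14CREER 1. A second Etv5 probe set (1450082_s_at) averaged 5.23 ± 0.24 in InvCREER and 6.32 ± 0.97 in K14CREER (SD, n = 2 each), again with K14CREER 2 apart. Its InvCREER values (5.05 and 5.40) lay under 5.42, so this probe set passed the filter only through K14CREER. Etv4 measured 6.38 and 6.03 on the InvCREER arrays, against 6.77 and 7.21 on the K14CREER arrays (1423232_at). It was lower on both InvCREER arrays, with a difference of -0.79 (SE 0.27).

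**Figure D2:**
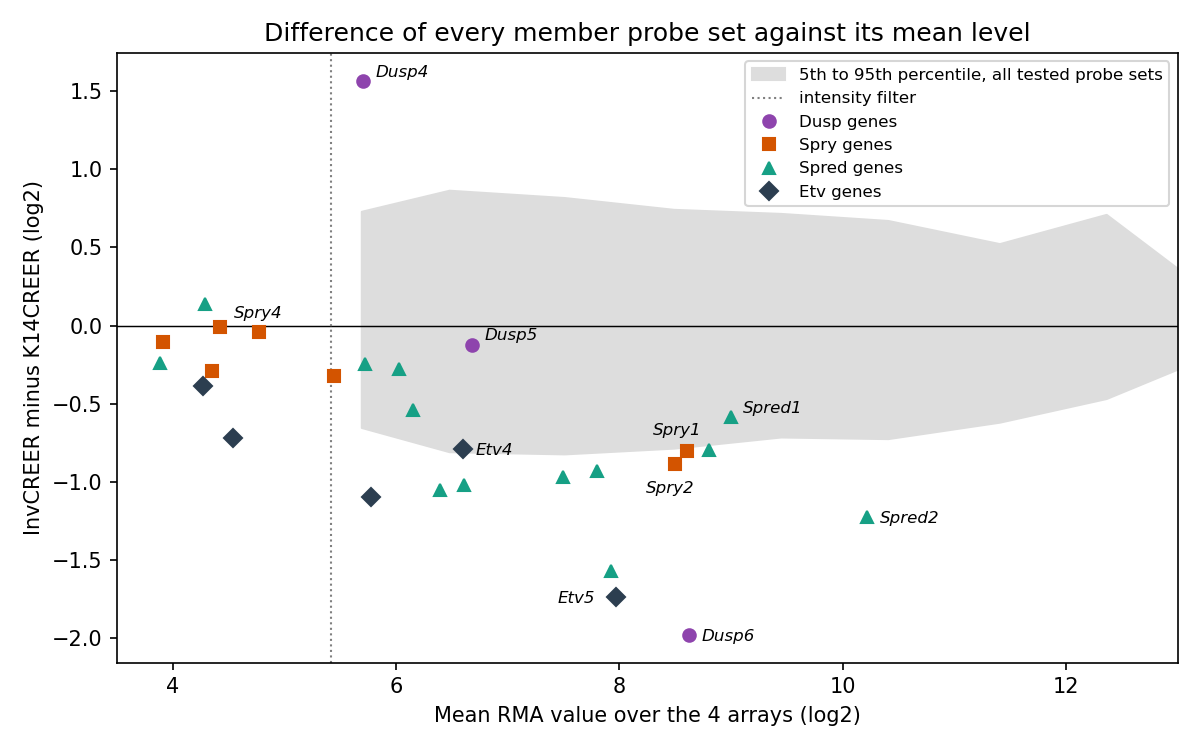
Difference in log2 units (InvCREER minus K14CREER, vertical) of all 28 member probe sets against their mean RMA value over the 4 arrays (log2, horizontal), with the 5th to 95th percentile of all tested probe sets shaded and the intensity filter dotted; symbols mark the brightest probe set of each gene. Dusp6, Etv5 and Spred2 lie farthest below the band, Dusp4 above it, and the differences of the probe sets under the filter lie between -0.72 and 0.14.

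Taken by probe set, 17 of the 20 tested were lower on both InvCREER arrays, where 22.1% of all tested probe sets were, and 1 was higher (20% of all). Of the 20, 13 had a difference below the 5th percentile of all tested probe sets, which was -0.76. Of the 20, 1 was called lower and 0 higher by limma, against 0.275% and 0.684% of all 22519 tested probe sets. These probe sets are not independent, since several read the same transcript. Among the 17, the dimmer Spry2 and second Etv5 probe sets passed the filter only through K14CREER.

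The difference between the lines exceeded the gap within each line for 13 of the 20 tested probe sets, and for 30.2% of all tested probe sets. It did so for the Dusp6 and Spry1 probe sets and the brightest ones of Spry2, Spred1, Spred2, Etv4 and Etv5, and not for Dusp4 or Dusp5. The order of the K14CREER arrays was not shared among the members. On the brightest probe set of each gene, Dusp4, Dusp5, Dusp6 and Spry2 were higher on K14CREER 1, while Spry1, Spred1, Spred2, Etv4 and Etv5 were higher on K14CREER 2. Between the arrays with number 1, InvCREER was lower than K14CREER on 19 of the 20 probe sets (51.1% of all tested), and between those with number 2 on 17 of 20 (52.2% of all).

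**Figure D3:**
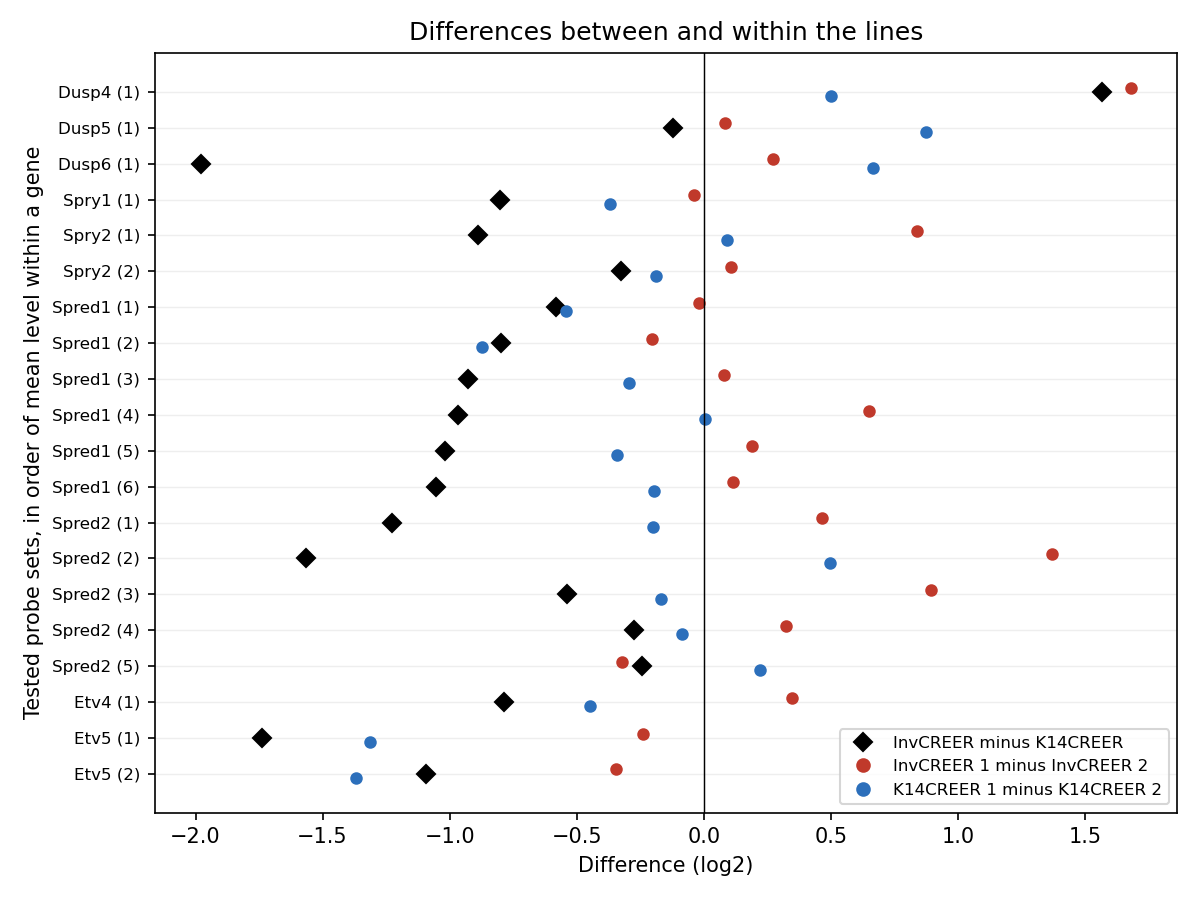
Differences in log2 units for the 20 tested member probe sets, numbered by mean level within a gene: InvCREER minus K14CREER (black diamonds), InvCREER 1 minus InvCREER 2 (red circles) and K14CREER 1 minus K14CREER 2 (blue circles). For Dusp6 the difference of -1.98 stands against gaps of 0.27 within InvCREER and 0.67 within K14CREER, while for Dusp4 the gap of 1.68 within InvCREER exceeds the difference of 1.57.

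The sequences before the start sites of the 3 members with the largest decreases are shown because ETS factors, Etv4 and Etv5 among them, are known targets of ERK. Start-site windows were found for 7 of the 10 members, with 8 starts, in RefSeq sequence of GRCm38.p6. Each run below is the 250 bases before a start, 5′ to 3′ on the gene's strand, and capitals mark ETS motifs on either strand (CGGAA, or AGGAAG of the PEA3 type; both hold GGAA and differ in the base before it, so that no site counts as both). Etv5 has 2 starts, and the upstream one is shown.
Dusp6, chr10:99262981-99263230 (+ strand): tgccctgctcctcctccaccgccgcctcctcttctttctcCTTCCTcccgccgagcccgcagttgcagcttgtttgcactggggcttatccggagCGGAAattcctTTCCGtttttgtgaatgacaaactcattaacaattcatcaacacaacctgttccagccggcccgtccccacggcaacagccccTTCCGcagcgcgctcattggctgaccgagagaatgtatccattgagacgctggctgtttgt
Spred2, chr11:19924192-19924441 (+ strand): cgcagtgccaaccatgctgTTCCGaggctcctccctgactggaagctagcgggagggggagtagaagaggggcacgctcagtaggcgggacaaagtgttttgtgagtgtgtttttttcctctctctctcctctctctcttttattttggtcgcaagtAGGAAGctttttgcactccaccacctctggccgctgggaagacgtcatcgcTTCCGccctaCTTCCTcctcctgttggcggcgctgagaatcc
Etv5, chr16:22439571-22439820 (- strand): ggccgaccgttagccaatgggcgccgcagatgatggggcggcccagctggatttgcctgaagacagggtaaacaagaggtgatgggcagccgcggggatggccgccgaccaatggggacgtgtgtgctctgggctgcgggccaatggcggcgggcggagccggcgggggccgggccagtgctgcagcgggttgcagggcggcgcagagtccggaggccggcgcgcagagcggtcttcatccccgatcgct

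In the Dusp6 window CGGAA was found 3 times, at 155, 144 and 61 bases before the start, and AGGAAG once at 210 bases. Such a count of 3 or more CGGAA was present in 2.12% of all 32851 start-site windows of that length, and at least 1 in 25.2%. Spred2 held CGGAA at 231 and 42 bases and AGGAAG at 93 and 32 bases before its start. At least 1 AGGAAG was present in 29.5% of all windows. Neither Etv5 window held either motif, nor did those of Spry1 and Spry2. Dusp5, which did not separate the lines, held CGGAA at 10 bases and AGGAAG at 192 bases, and Spred1 held CGGAA at 17 bases. The AP-1 motif TGANTCA was in none of the 8 member windows and in 6.75% of all. These matches are letters in a window and show no binding, and a window without them says nothing about the factor.

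The rest of the pathway was read from 8 lists holding 102 genes. Of these, 17 lay under the intensity filter, 10 were not analysed here, and 75 were tested. Of the 75, 1 was called by limma over all probe sets, beside 1.33% of all tested genes. An unadjusted limma p under 0.05 was found for 15 of the 75 genes, and for 13.9% of all tested probe sets. The latter is a share of probe sets and not of genes by their brightest probe set, so the units differ. Unadjusted counts of the single lists below stand beside that share. The called gene was Rasgrp1, an exchange factor that loads Ras with GTP. It measured 7.58 and 7.76 on the InvCREER arrays, against 5.33 and 5.82 on the K14CREER arrays, a rise of 2.10 (SE 0.26, limma adjusted p = 0.0297). Both InvCREER arrays stood well above both K14CREER arrays. Without K14CREER 1 the rise was 1.85 and the call was lost (limma adjusted p = 0.0992). There were then 0 calls in the lists, against 2 without InvCREER 2 and 3 without K14CREER 2. The median over the 75 genes was -0.11. Of the 75, 25 were lower on both InvCREER arrays than on both K14CREER arrays, beside 24.1% of all tested genes. Another 13 were higher on both, beside 21.3% of all.

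Upstream of Ras, 0 of 10 receptor genes and 0 of 4 ligand genes were called by limma, while 5 and 1 had an unadjusted p under 0.05. Receptor differences had a median of -0.27, with Igf1r, the IGF-1 receptor, at -1.02 (limma adjusted p = 0.18), Met, the HGF receptor, at -1.02 (limma adjusted p = 0.134) and Erbb2, the partner of other EGF receptors, at 0.93 (limma adjusted p = 0.118). The EGF receptor gene Egfr, named after its values were seen, measured 9.56 and 9.25 on the InvCREER arrays, against 9.46 and 9.95 on the K14CREER arrays, and overlapped. Among ligands, Epgn, which encodes the EGF receptor ligand epigen, measured 6.20 and 6.37 on the InvCREER arrays, against 9.44 and 7.40 on the K14CREER arrays (-2.14, SE 0.62, limma adjusted p = 0.182). Hbegf, another ligand of that receptor, was at -0.95 (limma adjusted p = 0.455) and Tgfa at -0.15 (limma adjusted p = 0.943). Both Epgn and Hbegf were highest on K14CREER 1, as Dusp6 was. The brightest probe sets of Spry1, Spred1, Spred2, Etv4 and Etv5 were highest on K14CREER 2, and a link between ligands and members was not tested. The means of 9 other ligand genes lay under the filter.

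Within the cascade the medians lay near 0. Among 14 adaptors and Ras regulators the median was -0.11, with Rras at -0.57 (limma adjusted p = 0.266) and the docking protein gene Gab1 at 0.46 (limma adjusted p = 0.404). The 9 genes of the kinase cascade had a median of 0.14 and 0 calls by limma, with Araf at 0.74 (limma adjusted p = 0.347), the scaffold gene Ksr1 at 0.46 (limma adjusted p = 0.525) and Map2k2 at 0.22 (limma adjusted p = 0.802). At an unadjusted p under 0.05 there were 2 and 1 in these lists.

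Of the genes that work beside the members 0 were called by limma, and 1 phosphatase and 1 inhibitor had an unadjusted p under 0.05. The 7 other MAP kinase phosphatases had a median of -0.14. Dusp10 was at -0.55 (limma adjusted p = 0.327), Dusp7 at -0.26 (limma adjusted p = 0.871) and Dusp9 at -0.17 (limma adjusted p = 0.855). The 8 other inhibitors had a median of -0.25. Errfi1, a feedback inhibitor of the EGF receptor, measured 8.93 and 9.14 on the InvCREER arrays, against 11.11 and 9.72 on the K14CREER arrays (-1.38, SE 0.43, limma adjusted p = 0.22). The ubiquitin ligase gene Cblb was at -0.67 (limma adjusted p = 0.466) and the ETS repressor gene Erf at -0.32 (limma adjusted p = 0.689).

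Other genes known to be induced by ERK were spread to both sides. Of 11 tested, 4 had lower means in InvCREER and 7 higher, with a median of 0.21, 0 called by limma and 2 with an unadjusted p under 0.05. Phlda1 was at -1.40 (SE 0.97, limma adjusted p = 0.64), with 6.89 and 6.02 on the InvCREER arrays, against 9.47 and 6.24 on the K14CREER arrays. The Eph receptor genes Epha4 and Epha2 were both at 0.76 (limma adjusted p = 0.387 and 0.437). Of 12 other ETS factors 0 were called by limma and 2 had an unadjusted p under 0.05, and their median was -0.04. Ets1 was at -1.08 (limma adjusted p = 0.208), Ehf at 0.79 (limma adjusted p = 0.654) and Elk4 at -0.57 (limma adjusted p = 0.137). Differences between these lists and the members were not tested.

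**Figure D4:**
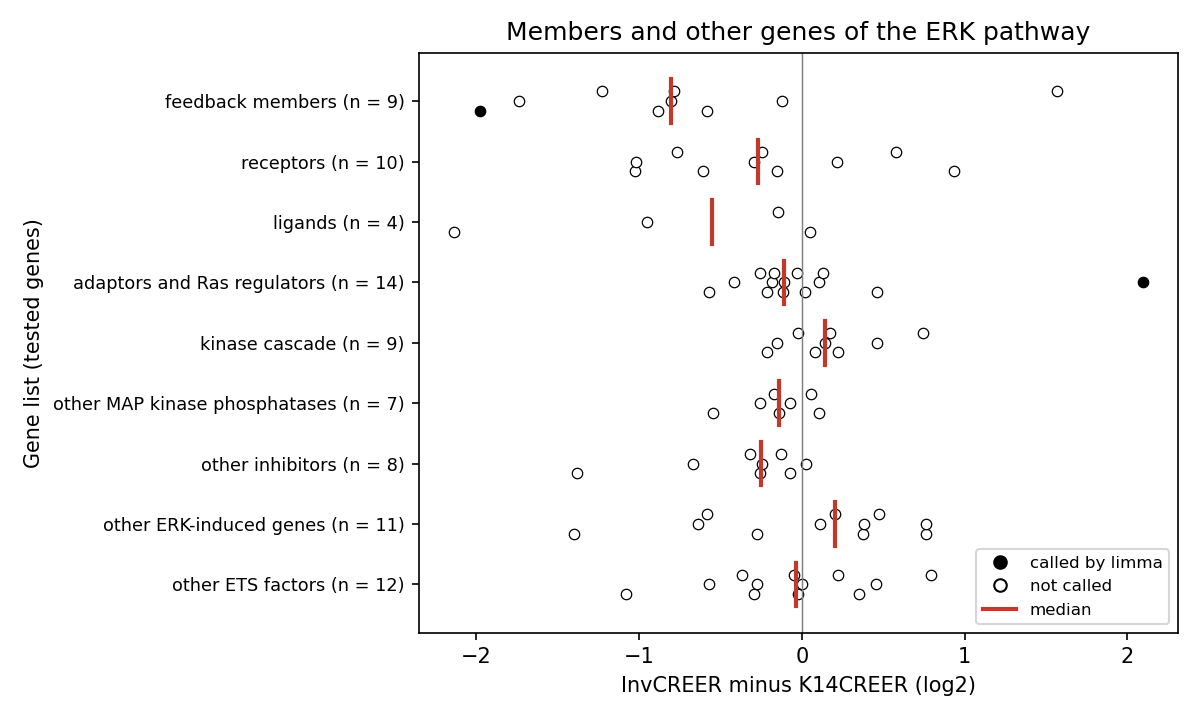
Difference in log2 units (InvCREER minus K14CREER) of each tested gene (brightest probe set) for the 9 tested feedback members and 8 lists of other ERK pathway genes; filled circles were called by limma and red bars are medians. Dusp6 and Rasgrp1 are the filled points, at -1.98 and 2.10, and the median of the members is -0.80.

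The 5 genes whose profile over the 4 arrays lay closest to that of Dusp6 were Fbln7, Lamb3, Dll1, Synm and Glul, by Euclidean distance of log2 values centred on each probe set's mean. Distances were 0.05 for Fbln7, a matrix protein gene, 0.22 for Lamb3, a laminin-332 subunit gene, 0.23 for the Notch ligand gene Dll1, 0.26 for the intermediate filament gene Synm and 0.26 for the glutamine synthetase gene Glul. Fbln7 measured 5.15 and 4.90 on the InvCREER arrays, against 7.35 and 6.62 on the K14CREER arrays. Synm measured 4.78 and 4.73 on the InvCREER arrays, against 6.96 and 6.57 on the K14CREER arrays. All these InvCREER values lay under 5.42, so Fbln7 and Synm passed the filter only through K14CREER. Among the members the nearest to Dusp6 were the 2 brighter Spred2 probe sets, at 0.89 and 0.98, and Dusp4 was the farthest, at 3.68. With 4 arrays such likeness describes these arrays alone.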

How the data were processed

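The 4 arrays were compared by Cre line. Per the labels' protocols, 100 ng of RNA was labelled by 3' in vitro transcription. Per the submitters' processing notes, the authors used RMA and Affymetrix Expression Console 1.1, and the deposited values are log2 (medians 5.40 to 5.44). RMA gives the arrays a common distribution, so a change in total RNA does not show, and the number of arrays limits the precision. Of 45101 probe sets, 64 controls were set aside, and 22519 with a mean at or above the median (5.42) were tested. Of the 45037 others, 34945 had 1 gene symbol in the platform annotation, 932 several and 9160 were unnamed here.

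Differences, InvCREER minus K14CREER, came from limma 3.58.1 in R 4.3.3 (lmFit, eBayes with a trend, 2-sided, Benjamini-Hochberg over 22519), tested on simulated data. An exact permutation of 2 against 2 arrays gives no p under 0.333. Members and lists were chosen with earlier results of these data known. Named were all members, every called list gene, the 3 largest differences per list, and the 5 profiles nearest Dusp6. Krt14, Ivl, Itga6 and Cd34 served as checks: Krt14 measured 13.82 and 13.85 in InvCREER and 14.14 and 14.17 in K14CREER, Itga6 11.62 and 11.77 against 12.38 and 12.41, Ivl 4.78 and 5.06 against 4.58 and 6.23, and Cd34 3.88 and 3.66 against 6.07 and 3.59. Alternatives covered filter, variance model, scaling, block, arrays left out, threshold, unit and kind of probe set.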

Additional observations from a re-analysis of the deposited data

How the results depend on the processing

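All 14 alternatives gave Dusp6 a lower mean in InvCREER, from -2.31 to -1.64. Its call was lost without the variance trend (-1.98), where 0 member probe sets were called, and without K14CREER 1 (-1.64). Leaving out 1 array in turn gave 0 to 3 member probe sets called lower (0 without K14CREER 1, 1 without K14CREER 2, 3 without either InvCREER array), 0 to 1 called higher (Dusp4, without InvCREER 2), 0 to 3 other pathway genes and 82 to 981 calls in all, against 1, 0, 1 and 216. The lone array of a line is then assumed to vary like the other line. With other settings, calls in all were 394 at the stricter filter (mean of at least 7), 122 without the trend, 692 at an adjusted p under 0.1, 551 with 1 probe set per gene and 450 with the mean of a gene's probe sets. Member probe sets called lower were 2 at the stricter filter, at an adjusted p under 0.1 and with 1 probe set per gene, Spred2 being the other one each time. Of all probe sets in those fits 1.22%, 1.39% and 2.21% were called lower, against 0.275% in the main fit. Other pathway genes called were 3 at an adjusted p under 0.1 and with 1 probe set per gene (Ccnd1, Fgfr2 and Rasgrp1) and 2 with the mean of probe sets (Ccnd1 and Rasgrp1). Ccnd1 (-0.64) and Fgfr2 (-0.77) on their brightest probe sets were lower on both InvCREER arrays, and were named after their values were seen. Some of these settings tested fewer features or used a looser threshold, and the cause of the changes was not tested. With the array number as a replicate block there were 1390 calls, and 3.15% of all tested probe sets were called lower. Among these were 6 member probe sets (Dusp6, Etv5, 2 of Spred1 and 2 of Spred2), and 7 other pathway genes were called. Same-numbered arrays deviated together (r = 0.38 across probe sets), but the labels do not say that the number marks a shared batch. Signal near background limits Spry4, the K14CREER values of Dusp4 and the InvCREER values of the dimmer Spry2 and second Etv5 probe sets. It also limits the InvCREER values of Fbln7 and Synm.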
